A study of Arabidopsis thaliana with 12 samples.

Results

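The regulation of flowering time in shade was followed in the transcripts of 10 genes, *FT*, *TSF*, *FLP1*, *FPF1*, *CO*, *SOC1*, *FUL*, *FLC*, *SPL3* and *SPL9*. They were picked by gene identifier from the 32824 genes listed for each library, with their values in these libraries already known. Their levels and fold changes are therefore given as a description. Their calls in the fit over all genes are counted once, further on, and nothing is read from them. RNA was sequenced from whole *Arabidopsis* seedlings grown on plates in continuous light. After 2 days in white light (WL), seedlings spent 8 days in WL with added far-red light (WL+FR) or stayed in WL. The red to far-red ratio was 0.2 in WL+FR and 7.7 in WL, and far-red enrichment imitates the shade of neighbouring plants. The 3 genotypes were each grown in both lights. The *rev-5* mutant carries an amino acid substitution in REVOLUTA (REV), a transcription factor of the class III HD-ZIP family. The *wox4* line carries a T-DNA insertion in *WOX4*, which encodes a homeobox transcription factor of the cambium. Col-0 is the wild type. Each of the 6 groups had 2 libraries, which the study calls biological replicates. Since no source used here gives separate cultures, p values measure only the spread between these libraries.

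The labels were checked before the flowering genes were read. *WOX4* stood at 112 to 149 TPM in the 4 libraries labelled *wox4*, against 1.59 to 3.93 TPM in the *rev-5* and Col-0 libraries (TPM, FPKM rescaled to a sum of 1e6 in each library). This goes against a loss of *WOX4* transcript, so these are called the libraries labelled *wox4* throughout. *REV* stood at 6.0 to 7.82 TPM in all 12 libraries, and a substitution need not alter the transcript level, so it checks nothing. Depth, estimated from the bounds around each FPKM value, was 13.65 to 15.22 M fragments per library (M, 1e6) if these bounds hold counting error alone. The study reports more read pairs per sample than this, most of them aligned. The fragments estimated behind a value may therefore be too few. The summed leaf photosynthesis markers reached 21303 to 23934 TPM in WL+FR and 23430 to 27330 TPM in WL, and the summed root markers 75.5 to 106 TPM in WL+FR and 70.2 to 110 TPM in WL. Of the 6 floral organ markers, *AG*, *SEP1* and *SEP2* were listed at 0 in all 12 libraries, and the 6 together gave at most 2.48 TPM.

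In long days the B-box protein CONSTANS (CO) activates *FT* in the companion cells of the leaf phloem. FT protein, the florigen, moves to the shoot apex and together with the bZIP protein FD turns on *SOC1* and *FUL*, 2 MADS-box genes that start the change to flowering. The MADS-box protein FLC represses *FT* and *SOC1*, while SPL transcription factors, which microRNA156 holds back in young plants, promote flowering with age. Shade brings flowering forward in *Arabidopsis*, and FPF1 and its relative FLP1 are small proteins that promote flowering.

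*FT* and *FLP1* had the highest fold changes between the lights of the 5 genes that passed the filter on low values. Sequences just before their annotated starts are shown because these 2 genes were alike across the libraries but held different letters there. Their Pearson r over the 12 libraries (0.991 on log2(TPM + 1)) was the highest among *FT*, *FLP1*, *SOC1* and *SPL9*. The 250 bases before *FT* (TAIR10.1, chr1:24331123-24331372, plus strand) and before *FLP1* (TAIR10.1, chr4:15229758-15230007, plus strand) hold no part of another gene. Capitals mark CCACA on either strand and the spaced forms TGTGNNATG and TGTGNNNATG, words of the CORE element that CO binds.
FT: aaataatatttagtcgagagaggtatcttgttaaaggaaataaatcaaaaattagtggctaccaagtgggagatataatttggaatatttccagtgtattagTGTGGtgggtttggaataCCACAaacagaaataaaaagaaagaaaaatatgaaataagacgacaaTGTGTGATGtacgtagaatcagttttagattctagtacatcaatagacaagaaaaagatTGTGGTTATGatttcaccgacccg
FLP1: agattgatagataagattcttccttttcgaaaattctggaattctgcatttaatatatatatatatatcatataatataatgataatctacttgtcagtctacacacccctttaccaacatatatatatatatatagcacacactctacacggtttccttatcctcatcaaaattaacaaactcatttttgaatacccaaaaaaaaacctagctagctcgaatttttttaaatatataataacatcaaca
The *FT* window held CCACA at 3 places, with TGTGNNATG ending 75 bases and TGTGNNNATG ending 15 bases before the start. The TGTGNNNATG match shares its first bases with the CCACA match nearest the start. Among 27438 windows of this length before protein-coding genes, searched on both strands, 28.43% held CCACA, 3.34% TGTGNNATG and 3.89% TGTGNNNATG. The *FLP1* window held none of these. Neither window held the G-box CACGTG (6.49% of all windows) or the PBE-box CACATG (11.08%), both words bound by the PIF factors of shade signalling, nor CCAAT (46.04%) nor the HD-ZIP word CAATNATTG (0.92%). The window before *SOC1* held 1 CCACA and none of the other words. A match is a run of letters, not a shown binding site, and a missing match says only that the letters are not in this window.

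*FT* (AT1G65480, chromosome 1, 24331373 to 24333999) was barely detected in WL and well detected in WL+FR in every genotype. In *rev-5*, it had 13.5 and 17.6 TPM in WL+FR, against 1.97 and 1.98 TPM in WL. In the libraries labelled *wox4*, it had 15.1 and 14.9 TPM in WL+FR, against 1.39 and 1.41 TPM in WL. In Col-0, it had 14.1 and 13.2 TPM in WL+FR, against 0.168 and 0.713 TPM in WL. All 6 WL+FR libraries were thus above all 6 WL libraries. The ratio of means was 7.86 in *rev-5* (95% exact counting interval 4.88 to 13.4), 10.7 in the libraries labelled *wox4* (5.95 to 21.2) and 31.0 in Col-0 (10.4 to 152). Such intervals pool the 2 libraries of a group, so they cover counting error only and leave out the spread between libraries. Reads without molecular identifiers are not independent molecules, so even the counting error may be understated. The width in Col-0 reflects its WL libraries, where about 3 fragments in both together lay behind *FT*, against about 139 in WL+FR. Fragments are estimated from the bounds, and *FT*, with 2 annotated transcripts, may have more than estimated.

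The genotypes differed in *FT* in WL and lay close together in WL+FR. In WL the order was *rev-5*, then the libraries labelled *wox4*, then Col-0, and no group overlapped another. The authors' bounds of neighbouring groups did overlap, with 0.404 to 1.91 FPKM in a *rev-5* library, 0.149 to 1.49 FPKM in a library labelled *wox4* and up to 0.952 FPKM in the higher Col-0 library. In WL+FR, *FT* in *rev-5* overlapped both other groups, and the 2 values of the libraries labelled *wox4* were 0.13 above Col-0 on the log2(TPM + 1) scale (SE 0.19). On the same scale *FT* was 1.07 higher in WL in *rev-5* than in Col-0 (SE 0.19) and 0.16 higher in WL+FR (SE 0.19). Fold changes on this scale understate the change of weakly detected genes, and with a pseudocount of 0.1 in place of 1 the WL difference of *rev-5* was 2.16. Without Col-0 WL replicate 1 it was 0.80, and without Col-0 WL replicate 2 it was 1.35.

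*FLP1* (AT4G31380, chromosome 4, 15230008 to 15230382, a single exon of 375 bases) followed the same course. It had 133 and 149 TPM in WL+FR against 18.3 and 21.1 TPM in WL in *rev-5*, and 138 and 134 TPM in WL+FR against 13.3 and 13.1 TPM in WL in the libraries labelled *wox4*. In Col-0 it had 131 and 152 TPM in WL+FR, against 5.86 and 15.7 TPM in WL. The ratio of means was 7.16 in *rev-5* (95% exact counting interval 5.18 to 10.13), 10.3 in the libraries labelled *wox4* (7.04 to 15.7) and 13.1 in Col-0 (8.49 to 21.3). No WL+FR library fell within the range of the WL libraries, and the WL+FR levels of the 3 genotypes overlapped. In WL, *FLP1* in *rev-5* lay above both other groups, while the libraries labelled *wox4* lay between the 2 Col-0 values.

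Col-0 WL replicate 1 was the lowest of the 12 libraries for both *FT* and *FLP1*. The response of *FLP1* in Col-0 was 3.73 on the log2(TPM + 1) scale (SE 0.31), 3.09 without Col-0 WL replicate 1 and 4.37 without Col-0 WL replicate 2. For *FT* in Col-0 it was 3.37 (SE 0.19), 3.10 without replicate 1 and 3.65 without replicate 2. The light response of *rev-5* minus that of Col-0 was -0.91 for *FT* (SE 0.26) and -0.95 for *FLP1* (SE 0.44), and without Col-0 WL replicate 1 these were -0.63 and -0.31. For the libraries labelled *wox4* minus Col-0 it was -0.64 for *FT* (SE 0.26) and -0.46 for *FLP1* (SE 0.44), and for *FLP1* it turned to 0.18 without Col-0 WL replicate 1.

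**Figure D1:**
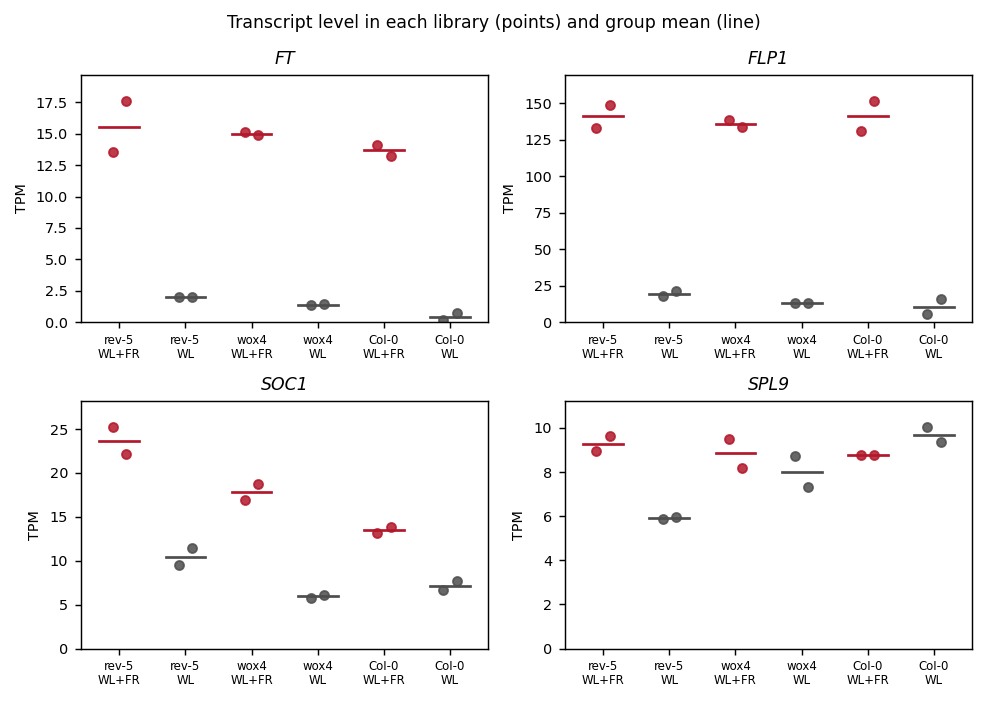
Transcript level (TPM, linear axis from 0) of *FT*, *FLP1*, *SOC1* and *SPL9* in each library (points, red for WL+FR and grey for WL) with the mean of the 2 libraries of a group (line). *FT* reached 13.2 to 17.6 TPM and *FLP1* 131 to 152 TPM in the 6 WL+FR libraries, above every WL library, while *SPL9* in *rev-5* was lowest in WL.

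Across the 12 libraries, *FT* had the highest Pearson r with *FLP1* of 18788 genes compared (0.991 on log2(TPM + 1)), but by Spearman rho (0.860) it was only in place 351. The 3 genes with the highest r with *FT* were *AGP12*, which encodes an arabinogalactan peptide (r 0.996), AT5G62280 (r 0.993) and *COL7*, a CONSTANS-like B-box gene (r 0.992), in places 12, 69 and 222 by rho. *AGP12* stood at 857 to 917 TPM in WL+FR against 565 to 672 TPM in WL, and *COL7* at 49.9 to 52.5 TPM in WL+FR against 12.2 to 21.8 TPM in WL. *OCT3*, which encodes a transporter of the organic cation and carnitine family, was the third gene by likeness to *FLP1* (r 0.987), after *AGP12* (r 0.988). All points share the 2 lights, so these coefficients mostly set 6 libraries against 6, and they are a description.

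*FT* is made in phloem companion cells, and in RNA from whole seedlings fewer cells of a type and less RNA per cell cannot be told apart. The 3 companion cell markers *SUC2*, *APL* and *AHA3* summed to 176 to 210 TPM in WL+FR and 135 to 165 TPM in WL, and all 3 were above 0 in every library. *SUC2*, the sucrose transporter that defines these cells, had 144 to 170 TPM in WL+FR and 101 to 129 TPM in WL. The other markers overlapped between the lights, *APL* with 14.1 to 19.5 TPM in WL+FR and 13.5 to 17.0 TPM in WL, and *AHA3* with 18.6 to 23.7 TPM in WL+FR and 19.2 to 23.2 TPM in WL. The part of these markers in the *FT* values was not tested.

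*TSF* (AT4G20370), the closest relative of *FT*, was near the limit of detection, with 0 to 6 fragments per library and a mean of 0.466 TPM. It had 1.1 and 0.987 TPM in *rev-5* WL+FR, against 0.194 and 0.389 TPM in *rev-5* WL. In the libraries labelled *wox4* it had 0.575 and 0.406 TPM in WL+FR, against 0 and 0.380 TPM in WL. Col-0 had 0.578 and 0.613 TPM in WL+FR, against 0.182 and 0.193 TPM in WL. Both WL+FR values were above both WL values in each genotype, with ratios of 3.57 in *rev-5*, 2.58 in the libraries labelled *wox4* and 3.19 in Col-0. Every counting interval of these ratios included 1, from 0.944 to 19.95 in *rev-5* to 0.422 to 27.1 in the libraries labelled *wox4*. 

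*FPF1* (AT5G24860), which gave its name to the family of *FLP1*, was above 0 in 7 of 12 libraries and never over 0.463 TPM. It was listed at 0.218 and 0 TPM in *rev-5* WL+FR and at 0 in both *rev-5* WL libraries. In the libraries labelled *wox4* it was at 0 in both WL+FR libraries, against 0.449 and 0.453 TPM in WL, and in Col-0 at 0.463 and 0.245 TPM in WL+FR, against 0.218 and 0.231 TPM in WL. By the estimate from the bounds, no value rested on more than about 1 fragment. With 3 annotated transcripts *FPF1* may have more than estimated, and at these levels no order can be read. *FLP2* (AT5G10625), the other family member on the list, was well expressed. It rose in WL+FR in all 3 genotypes, with 59.9 and 60.2 TPM in WL+FR against 35.7 and 31.3 TPM in WL in *rev-5*, and 64.6 and 63.5 TPM in WL+FR against 37.0 and 31.0 TPM in WL in Col-0. Its log2 fold change was 0.83 in *rev-5* (limma adjusted p = 0.000457), 0.75 in the libraries labelled *wox4* (adjusted p = 0.000615) and 0.90 in Col-0 (adjusted p = 0.000198), each with an SE of 0.096.

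*SOC1* (AT2G45660, chromosome 2, 18807505 to 18811125) was higher in WL+FR in every genotype and higher in *rev-5* than in Col-0 in both lights. It had 25.2 and 22.1 TPM in *rev-5* WL+FR, against 9.54 and 11.4 TPM in *rev-5* WL. In the libraries labelled *wox4* it had 16.9 and 18.7 TPM in WL+FR, against 5.80 and 6.14 TPM in WL. In Col-0 it had 13.2 and 13.9 TPM in WL+FR, against 6.65 and 7.65 TPM in WL. No group overlapped another, and only the order of the libraries labelled *wox4* and Col-0 differed between the lights. Light ratios were 2.26 in *rev-5* (95% exact counting interval 1.92 to 2.67), 2.98 in the libraries labelled *wox4* (2.43 to 3.68) and 1.89 in Col-0 (1.55 to 2.32). Relative to Col-0, *SOC1* in *rev-5* was 0.76 higher in WL+FR and 0.49 higher in WL on the log2(TPM + 1) scale (SE 0.12 for both). At least 62 fragments per library lay behind each *SOC1* value. The 4 shoot apical meristem markers summed to 34.5 to 40.9 TPM in WL+FR and 14.8 to 17.6 TPM in WL, nearly all of it *KNAT1*. *STM* and *CLV3* overlapped between the lights. *STM* had 1.74 to 3.70 TPM in WL+FR and 0.886 to 2.84 TPM in WL, and *CLV3* 0 to 0.76 TPM in WL+FR and 0 to 1.08 TPM in WL. *WUS*, which defines the stem cell organising centre, was above 0 in 1 of 12 libraries, and the part of these markers in the *SOC1* values was not tested.

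*FUL* (AT5G60910), which acts beside *SOC1* at the apex, was above 0 in 7 of 12 libraries with at most 0.582 TPM. It had 0.182 and 0.394 TPM in *rev-5* WL+FR against 0 and 0.582 TPM in *rev-5* WL, and 0.416 and 0.329 TPM against 0.10 and 0 TPM in the libraries labelled *wox4*. In Col-0 it had 0 and 0.109 TPM in WL+FR and was listed at 0 in both WL libraries. About 2 fragments were estimated behind the highest value, and *FUL*, with 2 annotated transcripts, may have more. No difference was detectable at this depth.

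*SPL9* (AT2G42200, chromosome 2, 17587169 to 17589671), which codes for a transcription factor of the age pathway, had a light ratio above 1 in *rev-5* and below 1 in Col-0. It had 8.94 and 9.62 TPM in *rev-5* WL+FR, against 5.87 and 5.95 TPM in *rev-5* WL. In the libraries labelled *wox4* it had 9.52 and 8.18 TPM in WL+FR, against 8.72 and 7.32 TPM in WL. In Col-0 it had 8.76 and 8.76 TPM in WL+FR, against 10.03 and 9.35 TPM in WL. Both *rev-5* libraries in WL were below every other library, while in WL+FR all 6 libraries lay between 8.18 and 9.62 TPM. The light ratio was 1.57 in *rev-5* (95% exact counting interval 1.28 to 1.93), 1.1 in the libraries labelled *wox4* (0.912 to 1.34) and 0.904 in Col-0 (0.754 to 1.08). The interval of Col-0 included 1, although its groups did not overlap. Relative to Col-0, *SPL9* in *rev-5* differed by -0.63 in WL and 0.07 in WL+FR on the log2(TPM + 1) scale (SE 0.11 for both).

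**Figure D2:**
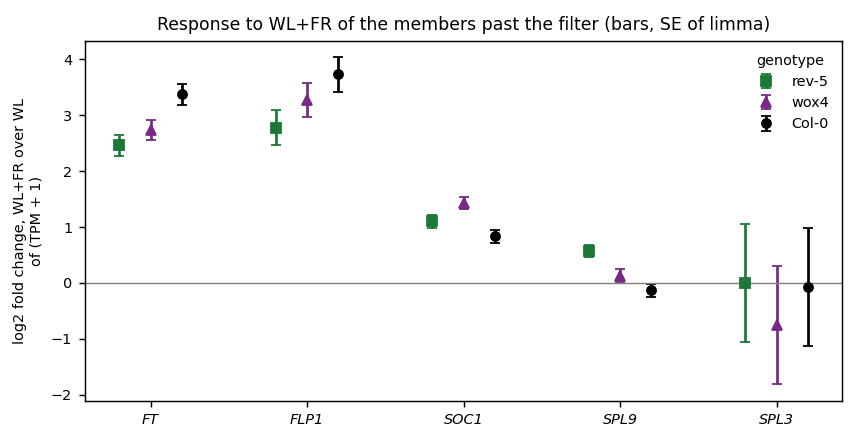
Log2 fold change, WL+FR over WL, of TPM + 1 in *rev-5* (squares), the libraries labelled *wox4* (triangles) and Col-0 (circles) for the 5 of the 10 genes whose mean reached 0.5 TPM. Bars are limma standard errors. *FLP1* and *FT* lie between 2.46 and 3.73, *SOC1* between 0.83 and 1.43, and *SPL9* at 0.57 in *rev-5* and -0.13 in Col-0, while the bars of *SPL3* span 0.

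*SPL3*, *CO* and *FLC* could not be read as levels, because each was listed at 0 in most or all libraries. *SPL3* (AT2G33810), a small target of microRNA156, was above 0 in 4 of 12 libraries, at 4.46 TPM in Col-0 WL+FR replicate 3, 5.02 TPM in Col-0 WL replicate 2, 1.01 TPM in replicate 7 (labelled *wox4*, WL+FR) and 4.77 TPM in replicate 6 (labelled *wox4*, WL). Its partner library of the same group was listed at 0 each time, as were all 4 *rev-5* libraries. A long noncoding RNA gene on the opposite strand, AT2G33815, covers 97.6% of *SPL3* and had 2.56 to 11.4 TPM. In each of the 4 libraries with *SPL3* above 0, AT2G33815 was the lower of its group, for example 2.56 TPM against 11.1 TPM in the other Col-0 WL+FR library. *SPL3* passed the filter through these 4 libraries alone, and leaving out 1 Col-0 library moved its Col-0 light response between -1.37 and 1.22.

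*FLC* (AT5G10140) was listed at 0 in all 12 libraries. It lies wholly within a long noncoding RNA gene of the opposite strand, AT5G01675, which had 32.0 to 89.5 TPM in WL+FR and 19.1 to 54.4 TPM in WL. AT5G01675 was lowest in *rev-5*, with 32.0 and 35.5 TPM in WL+FR and 21.9 and 19.1 TPM in WL, against 81.7 and 76.7 TPM in Col-0 WL+FR and 54.4 and 42.9 TPM in Col-0 WL. As use of strand in the quantification is not given in the sources used here, reads of *FLC* and of AT5G01675 cannot be told apart. *CO* (AT5G15840) was also at 0 in all 12 libraries, as was AT5G15843, a gene of the opposite strand that covers 67.3% of it. Of 622 protein-coding genes covered to at least 90% by a gene of the opposite strand, 53.7% were at 0 in all 12 libraries, against 18.4% of the 26822 others. *CO*, covered to 67.3%, was not among the 622, so this comparison does not bear on it. An exact 0 can be a failed estimate, but the cause of these zeros was not tested. They are not read as absent *FLC* or *CO* transcript.

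**Figure D3:**
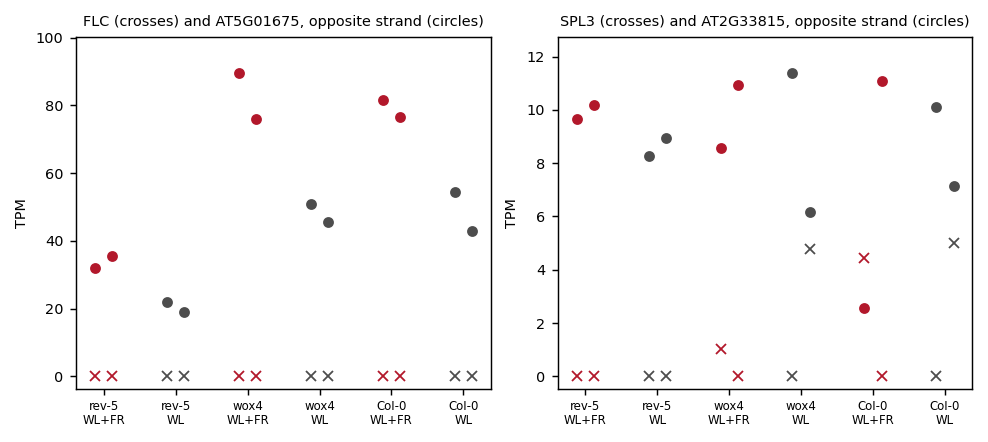
TPM (linear axis) of *FLC* and *SPL3* (crosses) and of the gene on the opposite strand that covers each (circles) in every library, red for WL+FR and grey for WL. *FLC* is at 0 in all 12 libraries beside AT5G01675 at 19.1 to 89.5 TPM, and *SPL3* is above 0 in 4 libraries.

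Of the 10 genes, 5 passed the filter on low values (mean over all libraries not under 0.5 TPM). By limma at a Benjamini-Hochberg adjusted p under 0.05 over 20020 genes, 4 of these were called for light in *rev-5*, beside 13.9% of all tested genes, 3 in the libraries labelled *wox4* (18.8%) and 3 in Col-0 (17.7%). For *rev-5* against Col-0, 3 were called in WL (4.67%) and 1 in WL+FR (3.54%). As the genes were chosen with these contrasts known, nothing is read from their counts. None was called for the libraries labelled *wox4* against Col-0 in WL (0.265%) or WL+FR (1.05%), or for a light response that differed from Col-0 in *rev-5* (0.395%) or in the libraries labelled *wox4* (0.105%).

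Genes around *FT* in the photoperiod pathway were then read from a list of 84 other flowering genes, of which 72 were tested. This list, too, was chosen with earlier results of these data known. Its counts, shares and adjusted p values are therefore a description, not an independent test. In WL+FR, 17 rose and 2 fell in *rev-5*, beside 11% and 2.83% of all tested genes. In the libraries labelled *wox4*, 19 rose and 2 fell, beside 15.4% and 3.44%, and in Col-0 13 rose and 3 fell, beside 13.3% and 4.41%. For the list this was 23.6% and 2.78% in *rev-5*, 26.4% and 2.78% in the libraries labelled *wox4*, and 18.1% and 4.17% in Col-0. The median log2 fold change of the list was 0.18 in *rev-5* (0.11 for all tested genes), 0.19 in the libraries labelled *wox4* (0.13) and 0.05 in Col-0 (0.08). With quantile normalization, which removes this shift, 10 rose and 3 fell in *rev-5*, 9 rose and 4 fell in the libraries labelled *wox4*, and 10 rose and 4 fell in Col-0. These counts stand beside other numbers over all 20020 tested genes than the shares above. Under this scaling 2102 were called in *rev-5* (1061 of them higher), 2654 in the libraries labelled *wox4* (1373) and 3103 in Col-0 (1600). Of all genes called for light, 79.6% were higher in WL+FR in *rev-5*, 81.7% in the libraries labelled *wox4* and 75.1% in Col-0, against 50.5%, 51.7% and 51.6% with quantile normalization, so the split of directions depends on the scaling.

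The genes of the CDF proteins, DOF factors that repress *CO* and *FT*, rose in WL+FR together with *FT* itself. *CDF5* had 17.0 and 14.6 TPM in WL+FR against 2.73 and 3.07 TPM in WL in *rev-5*, and 19.4 and 24.1 TPM in WL+FR against 4.48 and 2.57 TPM in WL in Col-0. Its log2 fold change was 2.10 in *rev-5* (limma adjusted p = 0.000204), 1.93 in the libraries labelled *wox4* (adjusted p = 0.000252) and 2.36 in Col-0 (adjusted p = 7.34e-05), each with an SE of 0.21. A gene of the opposite strand, AT1G69572, covers 56.7% of *CDF5* and had 13.4 to 20.7 TPM in WL+FR against 7.16 to 12.3 TPM in WL, and its reads could be shared with *CDF5*. *CDF2*, *CDF1* and *CDF3* rose by 0.92, 0.65 and 0.77 in *rev-5*, by 1.02, 0.85 and 0.63 in the libraries labelled *wox4* and by 0.96, 0.79 and 0.69 in Col-0 on the log2 scale, all past the threshold in limma. All 4 CDF genes on the list thus rose in every genotype, and all 12 of these calls held with quantile normalization and by voom. These settings use the same 12 libraries, so they show only that the calls did not depend on the scaling.

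Other genes of the photoperiod and florigen list split in direction. *FKF1*, which codes for a blue-light receptor that targets CDF proteins for degradation, fell in WL+FR in all 3 genotypes. It had 19.99 and 23.9 TPM in WL+FR against 29.4 and 29.0 TPM in WL in *rev-5*, and 23.5 and 25.1 TPM in WL+FR against 45.1 and 44.0 TPM in WL in Col-0. *GI*, whose protein forms a complex with FKF1, rose by 0.77 in *rev-5* (limma adjusted p = 7.73e-05), 0.68 in the libraries labelled *wox4* (adjusted p = 0.000117) and 0.56 in Col-0 (adjusted p = 0.000365) on the log2 scale. *COL5*, a CONSTANS-like gene at a high level, had 364 and 345 TPM in WL+FR against 188 and 183 TPM in WL in *rev-5*, and 387 and 392 TPM in WL+FR against 207 and 205 TPM in WL in Col-0. *ATC*, a relative of the floral inhibitor *TFL1*, rose by 0.77 in *rev-5* (limma adjusted p = 0.0148) and 0.67 in the libraries labelled *wox4* (adjusted p = 0.0215) and 0.61 in Col-0 (adjusted p = 0.0329). The call of *ATC* was lost in 2 of 11 alternatives in *rev-5* (adjusted p 0.0049 to 0.106) and in 4 of 11 in the libraries labelled *wox4* (0.0086 to 0.144).

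Among 15 floral repressors of *FT* or *SOC1*, 3 rose and 1 fell in *rev-5*, 6 rose and 1 fell in the libraries labelled *wox4*, and 3 rose and 1 fell in Col-0. For the list this was 20% and 6.67% in *rev-5*, 40% and 6.67% in the libraries labelled *wox4*, and 20% and 6.67% in Col-0, to be read beside the shares of all tested genes given above. By voom, 4 were called in *rev-5*, 3 in the libraries labelled *wox4* and 4 in Col-0. Over all 20020 tested genes voom called 2369, 3067 and 3353 in the same order. The gene that fell was in each case *TOE2*, an AP2-like repressor of *FT*, with 25.2 and 25.5 TPM in WL+FR against 35.7 and 32.8 TPM in WL in *rev-5*, and 21.5 and 20.7 TPM in WL+FR against 35.4 and 32.2 TPM in WL in Col-0. *TEM1* and *TEM2*, which repress *FT* and were named after their values were seen, rose in all 3 genotypes by 0.25 to 0.42 on the log2 scale, but with quantile normalization only *TEM2* in Col-0 still passed (limma adjusted p = 0.0236), with *TEM1* at 0.0747 to 0.475 and *TEM2* at 0.0688 and 0.116 elsewhere. *SMZ*, another AP2-like repressor, rose in the libraries labelled *wox4* alone by this test, by 0.69 (limma adjusted p = 0.0154, lost in 4 of 11 alternatives), and its light response did not pass as different from Col-0. Of the 15 tested regulators of *FLC*, none passed in *rev-5* or Col-0, beside 13.9% and 17.7% of all tested genes. At an unadjusted p under 0.05 were 0 in *rev-5* and 2 in Col-0, and voom called 0 and 1. *VRN1* alone rose in the libraries labelled *wox4* (6.67% of these regulators, beside 15.4% of all tested genes), where voom called none. The meristem identity genes *LFY*, *AP1* and *CAL* were below the filter and not tested, and *AP1* and *CAL*, which mark young flowers, were each above 0 in 1 library only. Of the 4 MADS-box genes tested from their list, *AGL15*, *AGL17*, *AGL18* and *AGL42*, none passed for light in any genotype by limma or by voom, with 0 at an unadjusted p under 0.05. By limma 13.9% of all tested genes passed in *rev-5*, 18.8% in the libraries labelled *wox4* and 17.7% in Col-0. At these shares, 4 genes without a call do not set this list apart. Of 12 other *SPL* genes tested, 2 rose in *rev-5* (16.7%, beside 11% of all tested genes). In the libraries labelled *wox4* 2 rose (16.7%, beside 15.4%), and in Col-0 1 rose (8.33%, beside 13.3%). *SPL10* rose in all 3 genotypes, by 0.66 in *rev-5* (limma adjusted p = 0.00591, lost in 1 of 11 alternatives), 0.45 in the libraries labelled *wox4* (adjusted p = 0.0273, and 0.165 with quantile normalization) and 0.55 in Col-0 (adjusted p = 0.011).

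**Figure D4:**
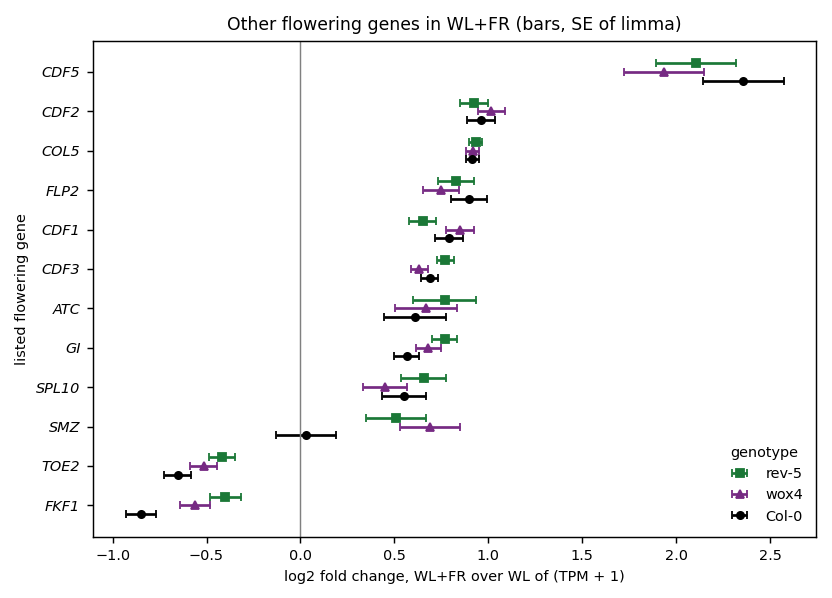
Log2 fold change, WL+FR over WL, of TPM + 1 for the 12 other flowering genes named for light, with limma standard errors, in *rev-5* (squares), the libraries labelled *wox4* (triangles) and Col-0 (circles). *CDF5* lies between 1.93 and 2.36, and *TOE2* and *FKF1* lie below 0 in all 3 genotypes.

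The listed genes were also compared between the genotypes. In *rev-5* grown in WL, 1 was higher and 2 were lower than in Col-0 by limma. This was 1.39% and 2.78% of the list, beside 2.61% and 2.06% of all tested genes. By voom 6 were called in all, beside 1025 of all 20020 tested genes. *COL2*, a CONSTANS-like gene, had 37.0 and 38.2 TPM in *rev-5* WL against 30.5 and 26.0 TPM in Col-0 WL (log2 0.41, SE 0.078, limma adjusted p = 0.0185). Genes of the opposite strand, AT3G02370 and AT3G02390, cover 32.1% and 28.7% of *COL2*. Both were listed at 0 in every library, and their reads could be shared with *COL2*. *FKF1* was lower in *rev-5* WL by the values above (log2 -0.59, SE 0.081, limma adjusted p = 0.00328) and *COL5* by little (log2 -0.15, SE 0.035, adjusted p = 0.0381). The call of *FKF1* was kept under all 11 alternatives, that of *COL2* was lost in 4 and that of *COL5* in 6. In WL+FR no listed gene passed in limma between *rev-5* and Col-0, beside 3.54% of all tested genes. There 10 were under an unadjusted p of 0.05, and voom called 1, beside 887 of all 20020 tested genes. For the libraries labelled *wox4* against Col-0 none passed, beside 0.265% of all tested genes in WL and 1.05% in WL+FR. Under an unadjusted p of 0.05 were 0 in WL and 11 in WL+FR, and voom called 0 in both lights. No light response of a listed gene passed as different from Col-0, with 7 under an unadjusted p of 0.05 in *rev-5* and 7 in the libraries labelled *wox4*, and 0 by voom for both. The share of all tested genes that passed was 0.395% in *rev-5* and 0.105% in the libraries labelled *wox4*. At shares this small, 72 tested genes without a call do not set the list apart.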

How the data were processed

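The authors aligned read pairs to TAIR10 by HISAT2. They deposited 1 FPKM value per gene and library (fragments per kilobase and 1e6 mapped fragments), with its bounds. The submitters' processing notes list FastQC, Bowtie2 and Cufflinks without versions or roles. Use of strand is not given in the sources used here. Groups came from the labels. Of the 32824 genes, 32520 had the same position in the TAIR10.1 annotation, which gave names, strands and the windows before each start (RefSeq).

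After rescaling to TPM, limma 3.58.1 in R 4.3.3 was run on log2(TPM + 1), with a mean per group, eBayes with trend and Benjamini-Hochberg adjustment over the 20020 genes whose mean reached 0.5 TPM. The study's own test used read counts, which were not used here. Fragments behind a value were estimated from its bounds, taken as 2 SD of counting error, at 13.65 to 15.22 M per library (M, 1e6). This is below the number of read pairs per sample that the study reports. The steps were tested on simulated data. Intervals came from scipy 1.17.1, plots from matplotlib 3.10.9 and tables from pandas 2.3.3 (Python 3.11.15).

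The 10 genes and all lists were chosen with earlier results of these data known. Beside them the text names the 3 genes most like *FT*, *FLP1*, *TSF* and *FPF1*, and in each comparison up to 8 listed genes with the largest change among those called without overlap of the groups. *SPL16* was left out, as its name did not match its identifier. Alternatives were a pseudocount of 0.1, no filter, FPKM, quantile normalization, no trend, voom on approximated fragments, only genes above 0 in all libraries, and leaving out each replicate. The series text mentions a further genotype, which was not analysed here.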

Additional observations from a re-analysis of the deposited data

Results flagged for a closer look

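The light response of *SPL9* had opposite signs in *rev-5* (0.57 on the log2(TPM + 1) scale, SE 0.11) and Col-0 (-0.13, SE 0.11). The counting interval of the Col-0 ratio, 0.754 to 1.08, included 1, so a fall in Col-0 is not shown. In the libraries labelled *wox4* the response was 0.13 (SE 0.11), and the 2 lights overlapped. Both *rev-5* libraries in WL+FR were above both in WL, and both Col-0 libraries in WL+FR were below both in WL. The response of *rev-5* minus that of Col-0 was 0.70 on the log2(TPM + 1) scale (SE 0.16), and 0.65 to 0.75 when any 1 of the 8 libraries was left out. In the limma fit over all genes it was not called at an adjusted p under 0.05. As *SPL9* was chosen with these values known, nothing is read from that call, and no independent test of the difference was made. No other of the 5 genes past the filter, and none of the named listed genes, met this rule.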

How the results depend on the processing

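No value that was called changed sign. Values of *FT*, *FLP1*, *SPL3* and *SPL9* that were not called did under some alternatives, such as the light response of *FLP1* in the libraries labelled *wox4* minus that in Col-0 (-0.46, and 0.18 without Col-0 WL replicate 1). Settings other than left-out libraries were tried for the counts of listed genes called, the likeness coefficients and the Col-0 light ratios of *FT*, *FLP1* and *SOC1*. Of these 73 settings, 66 stayed close to their value. The count for light in the libraries labelled *wox4* was 21, 13 with quantile normalization and 12 to 15 without 1 library. For *rev-5* against Col-0 in WL it was 3, 1 without trend, 6 by voom and 1 to 2 without 1 library. For *rev-5* against Col-0 in WL+FR it was 0, and 1 with FPKM, by voom, and over genes above 0 in all libraries. The light response of *SPL9* in the libraries labelled *wox4* was 0.13, and -0.02 with quantile normalization. Without 1 library the count for light was 13 to 16 in *rev-5* (19 with all) and 12 to 14 in Col-0 (16 with all). The likeness of *FLP1* and *FT* was 0.860 by Spearman rho. Of 27 calls of named genes, 21 held under every alternative and 6 were lost in at least 1. They were *ATC* (highest adjusted p = 0.106) and *SPL10* (0.0543) in *rev-5*, *SMZ* (0.108) and *ATC* (0.144) in the libraries labelled *wox4*, and *COL2* (0.104) and *COL5* (0.226) in *rev-5* against Col-0 in WL. The cause was not tested. The fold change of *FT* in Col-0 was 4.88 on the log2 scale with a pseudocount of 0.1 and 4.66 by voom. Where a library left its group with 1, that library was assumed to vary like the other groups. No paired analysis was possible because the replicate numbers run from 1 to 12 and no group shares a number with another. With 2 libraries a group, *TSF*, *FPF1* and *FUL* rest on an estimated 6 fragments per library or fewer.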

Other observations

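*TSF* and *FPF1*, both below the filter, were also compared with all other genes across the 12 libraries, as a description. Most like *TSF* were AT1G57630 (Pearson r 0.939), *SDH5*, which encodes a subunit of succinate dehydrogenase (r 0.937), and AT4G17215 (r 0.936). AT1G57630 had 2.72 to 8.47 TPM in WL+FR and 0.689 to 2.32 TPM in WL. Most like *FPF1* were *ENH1* (r 0.883), *AHL5*, an AT-hook gene (r 0.882), and *FBS4*, an F-box gene (r 0.865), whose ranges in WL+FR and WL overlapped. With an estimated 6 fragments at most behind a value of *TSF* and about 1 behind a value of *FPF1*, these coefficients are no finding.

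*SOC1* had an r of 0.893 with *FT* and 0.898 with *FLP1* over the 12 libraries, and *SPL9* had 0.254 with *FT*. *LFY*, which codes for a transcription factor of floral meristem identity, had 0.10 and 0 TPM in *rev-5* WL+FR against 0.637 and 0.193 TPM in *rev-5* WL, and 0.564 and 0.667 TPM in Col-0 WL+FR against 0.177 and 0.189 TPM in Col-0 WL. These are levels of a few fragments, below the filter, and were not tested.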
